A study of Mus musculus with 12 samples.

Results

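The genes Pax3, Pax7, Lbx1, Met, Myf5, Myod1, Six4 and Eya1 are known for their part in the muscle precursors that enter the limb bud, and their genomic landscapes were examined for β-catenin chromatin interactions and histone H3K27 acetylation (H3K27ac) in mouse forelimb buds. These are 8 of the 21938 protein-coding genes of the GENCODE M21 annotation on chromosomes 1 to 19, X and Y. Every peak summit lying at most 100 kb from the body of one of these genes was taken from 12 peak lists, which gave 270 of the 268431 summits in these lists. The genes were chosen by name, with earlier results of these data known. Chromatin came from pooled forelimb buds of WT Swiss Albino embryos, in both treatments alike. Embryos were treated at E10.5 with C59, an inhibitor of porcupine that blocks the secretion of WNT ligands, or with its solvent DMSO (wild-type control), and were dissected 6 h later. By the paper's methods, the C59 solution also held methylcellulose and Tween-20, which the control solution did not. For each antibody and treatment there are 2 biological replicates, called peaks in each replicate, and 1 consensus list called on both replicates together.

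Limb muscle derives from cells that leave the somites next to the limb bud and migrate into it. PAX3 is the paired-domain transcription factor of these cells and acts upstream of Met, which encodes the receptor that lets them detach in response to HGF released along their path. LBX1 is a homeodomain protein that these cells need on their lateral route into the limb. SIX4 is a homeodomain protein and EYA1 its transcriptional coactivator, and both act upstream of Pax3 and of the myogenic genes. Six4, Eya1 and Met are also used in other cells of the embryo. MYF5 and MYOD1 are the bHLH factors that commit the cells to the muscle lineage, and PAX7 marks the muscle progenitors that later form satellite cells. In canonical WNT signal transduction, β-catenin enters the nucleus and binds DNA through TCF/LEF factors, and H3K27ac marks active promoters and enhancers. Muscle precursors are a minority of the cells of a forelimb bud, and in such bulk chromatin fewer cells of a type and less binding or acetylation per cell cannot be told apart.

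The positions are on mouse build mm10. The number of summits per replicate was 20203 and 25836 (β-catenin, DMSO), 330 and 358 (β-catenin, C59), 35263 and 37935 (H3K27ac, DMSO) and 37232 and 33180 (H3K27ac, C59). The genome-wide background coverage computed from the lists was 1.57 to 1.83 overlapping fragments in the β-catenin libraries and 2.69 to 3.17 in the H3K27ac libraries. The labelled tissue was checked by H3K27ac at promoters, defined as summits within 1 kb of an annotated start. All 7 markers of forelimb bud mesenchyme had such a summit in both DMSO replicates, compared with 1 of 3 hindlimb genes (Tbx4), 1 of 5 ectodermal, 0 of 5 endothelial, 0 of 4 blood, 0 of 5 differentiating muscle, 0 of 4 neural and 1 of 4 somite genes (Tcf15). After C59 treatment, both replicates had a promoter summit for 2 of the 5 endothelial genes (Pecam1 and Cdh5), 1 of the 4 blood genes (Spi1), 2 of the 5 ectodermal and 2 of the 3 hindlimb genes, and again for all 7 forelimb genes and for none of the differentiating muscle or neural genes. Over all protein-coding genes, both replicates had a promoter summit for 52.3% in DMSO controls and 51.3% after C59. The part of the marker genes in the values below was not tested.

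The β-catenin interactions around the 8 genes are shown at 4 sites, namely the strongest DMSO consensus summit holding a TCF/LEF core in the Pax7, Lbx1, Six4 and Eya1 landscapes. The core was searched as ATCAAAG or TTCAAAG on both strands in 200 bp centred on the summit, and the capitals mark it as it reads on the plus strand, so that CTTTGAA is TTCAAAG on the minus strand. The letters are those of the mm10 reference, which is another strain than the embryos used here. The Lbx1 window is chr19:45270766-45270965, in the intergenic region upstream of the gene. The Six4 window is chr12:73111961-73112160, in an intron close to the start, and the Eya1 window is chr1:14146077-14146276, in the intergenic region beyond the 3′ end. For Pax7 the summit lies in an untranslated region of the neighbouring gene model Gm21969, and only the 30 bases of chr4:139642247-139642276 around the core nearest the summit are given.

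Pax7 +191 kb: gaacacagcaggATCAAAGtgggggatgtg

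Lbx1 -35 kb: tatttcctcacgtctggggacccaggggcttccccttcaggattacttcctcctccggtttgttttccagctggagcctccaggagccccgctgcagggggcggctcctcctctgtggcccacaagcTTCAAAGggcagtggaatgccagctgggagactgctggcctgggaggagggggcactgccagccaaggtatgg

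Six4 +1.4 kb: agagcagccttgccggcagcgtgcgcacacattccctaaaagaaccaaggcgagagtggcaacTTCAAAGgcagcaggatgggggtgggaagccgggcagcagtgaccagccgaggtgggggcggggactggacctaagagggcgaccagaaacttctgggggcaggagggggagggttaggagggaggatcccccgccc

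Eya1 +164 kb: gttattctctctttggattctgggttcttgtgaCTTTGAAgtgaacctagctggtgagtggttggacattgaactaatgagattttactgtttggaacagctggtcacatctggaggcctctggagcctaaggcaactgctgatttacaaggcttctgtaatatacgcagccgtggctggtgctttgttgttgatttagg

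Distances count from the annotated start of the gene in its direction of transcription. The fold enrichment of the coverage over its local expectation, as macs2 gives it, was 12.9 at the Pax7 site, 6.42 at the Lbx1 site, 7.77 at the Six4 site and 24.7 at the Eya1 site in the DMSO consensus list. The Pax7 summit has 2 cores in its 200 bp and the other sites have 1. The distance from the summit to the first base of the printed core is 7 bases to the right at the Pax7 site and 27 at the Lbx1 site. At the Six4 and Eya1 sites the core begins to the left of the summit, at -37 and -67 bases.

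To assess if β-catenin interactions with these landscapes depend on WNT secretion, summits were counted in each library. In DMSO controls, the 8 landscapes held 30 and 37 β-catenin summits in the replicates, and after C59 treatment they held 1 and 1. The mean fell from 33.5 ± 4.95 to 1 ± 0 summits (SD, n = 2 libraries per treatment), and the groups do not overlap. The two-sided exact permutation test over the 4 libraries gave p = 0.3333, the smallest value that 2 against 2 libraries allow. For 7 of the 8 genes, both C59 counts lay below both DMSO counts, compared with 65.0% of all protein-coding genes. A gene without summits in DMSO controls cannot meet this. A DMSO consensus summit was present for 87.5% of the 8 genes and for 58.8% of all genes. The loss of summits around the muscle precursor genes is therefore read against a loss throughout the genome. The exception is Myf5, which had no β-catenin summit in the first DMSO replicate and 1 in the second.

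**Figure D1:**
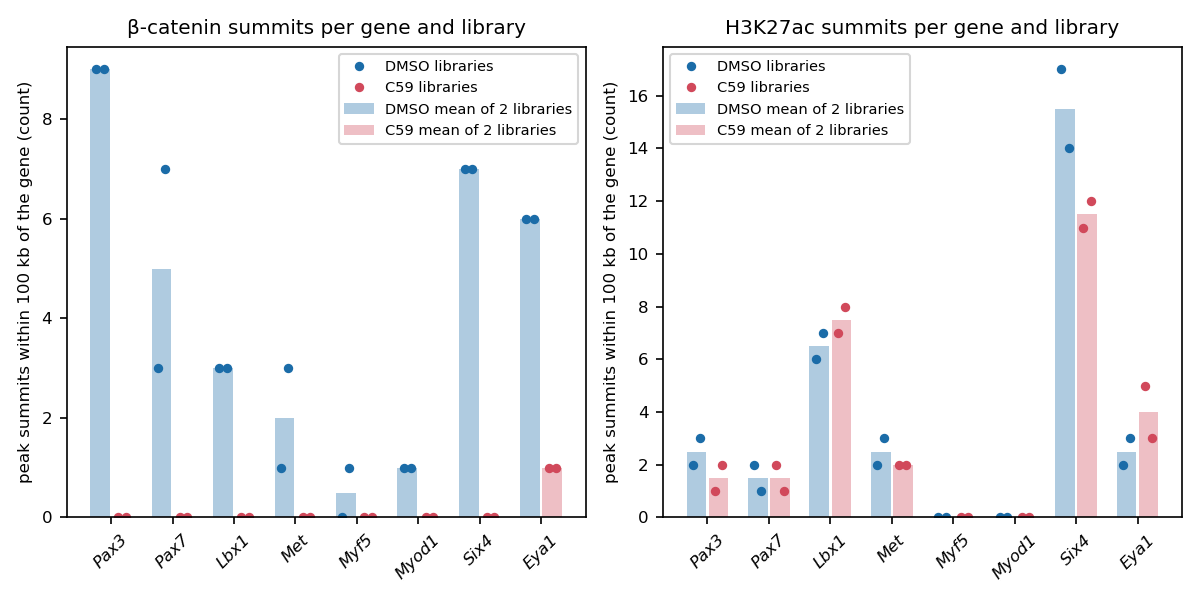
Number of β-catenin (left) and H3K27ac (right) peak summits within 100 kb of each gene, with points for single libraries and bars for the mean of the 2 libraries of a treatment. Pax3 has 9 β-catenin summits in both DMSO libraries and 0 in both C59 libraries, whereas the H3K27ac counts of the 2 treatments overlap or meet for all genes except Six4.

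Among the DNA-binding regulators of the migrating cells, Pax3 had the most β-catenin interactions. Its 295.868 kb landscape held 9 summits in each DMSO replicate and 0 in each C59 replicate, and 7 summits in the DMSO consensus list. No other protein-coding gene lies in this interval. For Lbx1 there were 3 and 3 summits in the DMSO replicates and 0 in both C59 replicates. Pax7 had 3 and 7 in the DMSO replicates, so that the replicates themselves differed by more than for any other of the 8 genes, and 0 in both C59 replicates. Met, the receptor gene, had 1 and 3 summits in DMSO and 0 after C59.

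Six4 and Eya1, which act together, also had several interactions. Six4 had 7 summits in each DMSO replicate and 0 in each C59 replicate, but its interval also contains other protein-coding genes, among them Mnat1. Eya1 had 6 in each DMSO replicate and 1 in each C59 replicate, the only one of the 8 landscapes in which a β-catenin summit was called after C59. Few interactions were called around the myogenic determination genes. For Myod1, 1 summit was called in each DMSO replicate and none after C59. The Myf5 landscape held a single summit, at -28.8 kb with a fold enrichment of 3.56 from 9 overlapping fragments, in the second DMSO replicate and in no other list.

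The landscapes differ in length because gene bodies do. Per 100 kb, the DMSO consensus list held 2.37 summits around Pax3, 1.87 around Six4, 1.48 around Lbx1 and 1.17 around Eya1. The values were lower around Pax7 (0.675), Myod1 (0.494), Met (0.322) and Myf5 (0). In the single DMSO replicates, Six4 (3.27 per 100 kb in both) and Pax3 (3.04 in both) come in the opposite order, so that these neighbours in rank cannot be ordered. For Pax7 the replicates gave 1.01 and 2.36 per 100 kb, below Lbx1 and Eya1 in the first (1.48 and 1.76) and above both in the second (1.48 and 1.76). The median over the 8 genes was 0.923 summits per 100 kb, compared with 0.434 over all protein-coding genes and 2.95 over the 7 markers of forelimb bud mesenchyme.

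Within the DMSO consensus list, the 22 summits around these genes lay mostly away from promoters. Of the 22, 10 were intergenic, 9 intronic, 2 in untranslated regions and 1 in a coding exon. A distance of 1 kb or more from any annotated start was found for 20 of 22 (90.9%, exact 95% binomial interval 70.8 to 98.9%), compared with 83.7% of all 16193 consensus summits on the same chromosomes. The interval covers counting error only. For 19 of the 22 summits the nearest protein-coding start was that of the gene itself, and the other 3 lie nearest to another gene, 1 in the Pax7 landscape and 2 in the Six4 landscape. The median fold enrichment was 6.80 (range 4.29 to 24.7), against a median of 6.76 over all consensus summits.

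**Figure D2:**
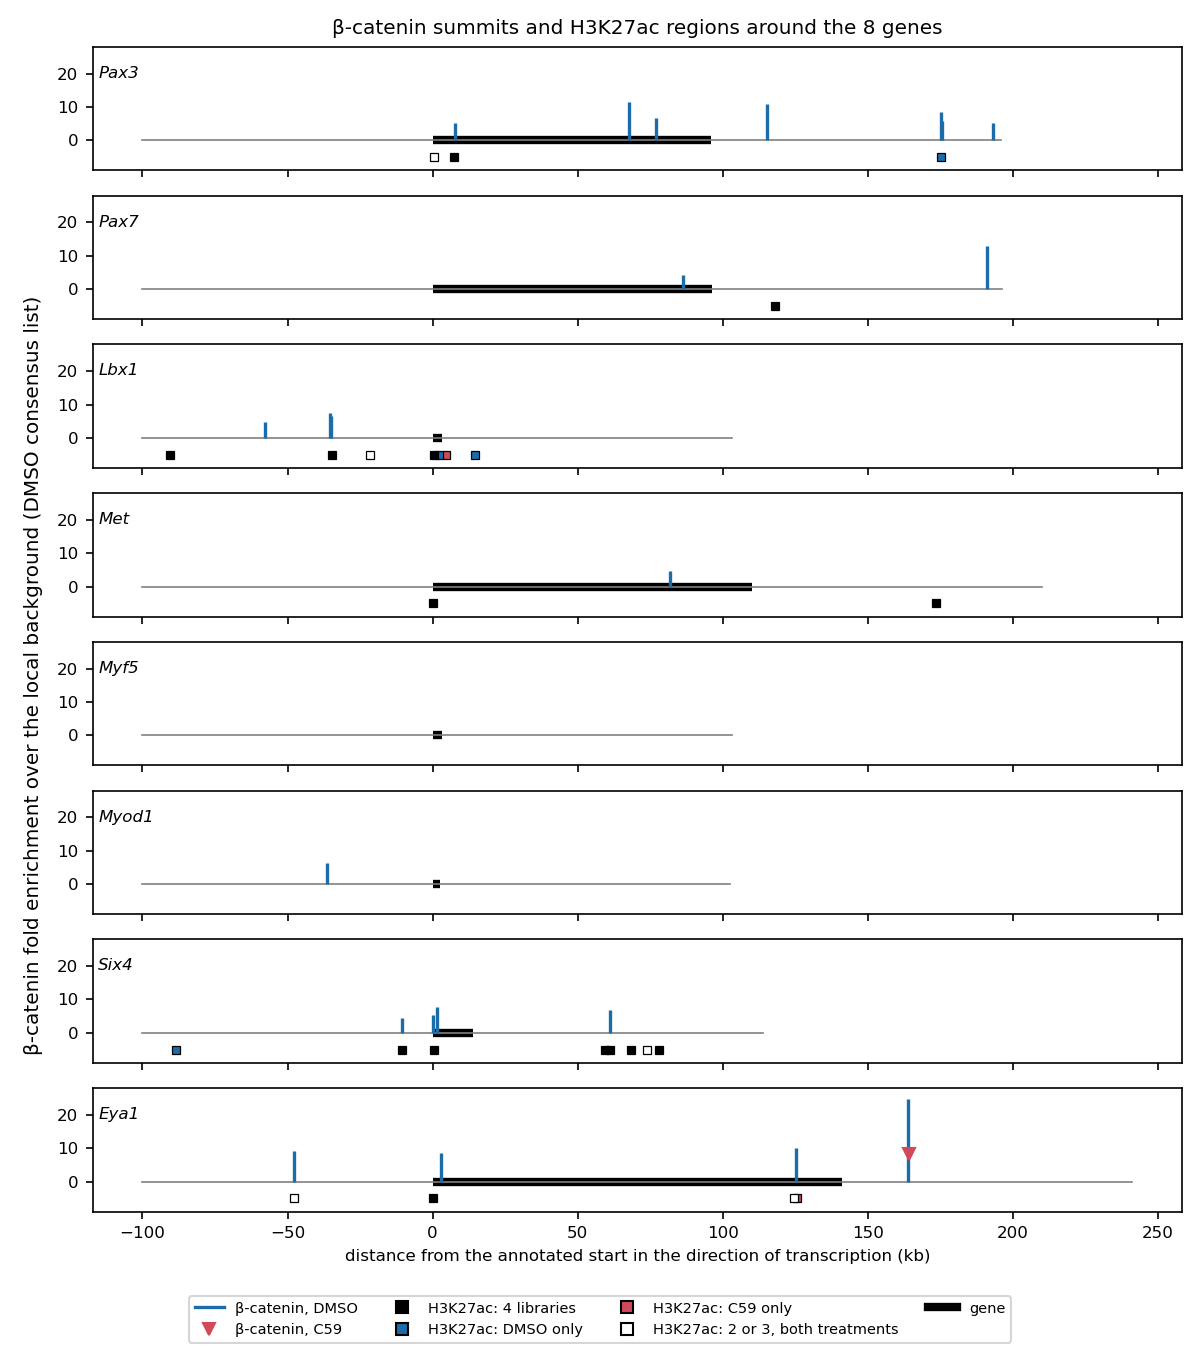
Landscapes of the 8 genes drawn as distance from the annotated start (kb, x axis), with blue lines for the fold enrichment of DMSO consensus β-catenin summits (y axis), a red triangle for the β-catenin summit of the C59 consensus list and squares for H3K27ac regions by the libraries in which they were called. The Pax3 summits spread over the gene and its 3′ flank, the Lbx1 and Myod1 summits lie upstream, and the red triangle appears only 164 kb downstream of the Eya1 start.

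In the Pax3 landscape, the strongest summit lies in an intron 67.7 kb downstream of the start, at position 78129428 of chromosome 1, with a consensus fold enrichment of 11.5. The coverage at this summit was 24 and 33 overlapping fragments in the DMSO replicates. It holds no TCF/LEF core. Of the 7 consensus summits 3 hold a core, among them a second intronic summit at +76.9 kb (fold 6.70), and not all of the 7 are described here. A pair of summits shares 1 peak at +175 kb, with folds of 5.73 and 8.56, and another summit lies 7.59 kb inside the gene with a fold of 5.25. None of the 7 lay in a β-catenin peak of either C59 replicate.

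In the Lbx1 landscape, 2 of the 3 consensus summits share a single peak about 35 kb upstream of the start, with folds of 6.42 and 7.61, and the third lies at -57.8 kb with a fold of 4.67. At the stronger one, at position 45271149 of chromosome 19, the nearest DMSO replicate summits were covered by 19 and 22 fragments. The strongest Pax7 summit, at position 139642252 of chromosome 4, was covered by 36 and 39 fragments, and it lies 191 kb from the Pax7 start but 11.3 kb from that of Tas1r2, a taste receptor gene. The other Pax7 consensus summit is intronic at +86.2 kb with a fold of 4.29, the lowest of the 22. For Met the single summit, at position 17545730 of chromosome 6, is intronic at +81.9 kb, with a fold of 4.67 and 10 and 12 fragments. Its nearest annotated start, 1243 bp away, belongs to a transcript of Met itself.

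The Myod1 summit, at position 46340180 of chromosome 7, lies at -36.3 kb, with a fold of 6.22 and 12 and 14 fragments in the DMSO replicates. It holds 2 homeodomain cores and neither a TCF/LEF core nor an E-box. The known Myod1 distal regulatory region and core enhancer, read as 4 to 6 kb and 19 to 25 kb upstream of the start, and the Myf5 limb enhancer, read as 55 to 60 kb upstream, held 0 summits of either antibody in any of the 12 lists. These intervals are approximate textbook positions.

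In the Six4 landscape, the strongest summit is the printed one, at position 73112061 of chromosome 12, covered by 27 and 41 fragments. Six4 is also the only one of the 8 genes with a β-catenin summit at its promoter in both DMSO replicates, in its untranslated region 126 bp from the start, with folds of 5.00 and 5.15 (22 and 25 fragments). Over all protein-coding promoters this was the case for 10.2%. Another Six4 consensus summit lies in a coding exon of Mnat1 at -10.4 kb (fold 4.37). The Pax7 promoter had a summit in the second DMSO replicate alone, with a fold of 4.77.

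The Eya1 landscape holds the strongest β-catenin interaction around these genes. Its summit at position 14146177 of chromosome 1 lies 164 kb downstream of the start and 22.8 kb beyond the 3′ end of the gene, and its nearest protein-coding start is that of an Eya1 transcript, 85315 bp away. It was covered by 111 and 153 fragments in DMSO controls, with folds of 20.5 and 25.2, and by 16 and 25 fragments after C59, with folds of 5.78 and 8.19. The background coverage of the C59 libraries was 1.83 and 1.82, and that of the DMSO libraries 1.57 and 1.81. The part of library depth or of the immunoprecipitation in the lower coverage of this site after C59 was not tested. The mean fold enrichment was 22.8 in DMSO controls and 6.98 after C59, and the replicates of the 2 treatments do not overlap. This site was singled out by its values, as the strongest in DMSO controls and the only one called after C59. The difference in fold enrichment was therefore not tested. By fold enrichment the summit ranks at 74 of the 16193 DMSO consensus summits. Of the 74 summits with a fold at least as high, 26 (35.1%) lay in peaks of both C59 replicates, compared with 175 (1.08%) of all summits. The other 3 Eya1 consensus summits, at -47.6 kb (fold 9.25), +2.9 kb (fold 8.45) and +125 kb (with a TCF/LEF core), were covered by 20 to 43 fragments in the DMSO replicates and were not in a C59 peak.

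Of the 22 DMSO consensus summits, 21 lay outside the peaks of both C59 replicates (95.5%), compared with 97.7% of all consensus summits. The lists differ in the weakest peak they hold, as the q-value limit requires a lower p when few peaks are called. The lowest −log10 p listed was 3.89 and 3.79 in the DMSO replicates and 5.69 and 5.72 in the C59 replicates. At the background coverage of the libraries this corresponds to 8 fragments in DMSO controls and 11 after C59. The coverage at the 21 lost summits ranged from 8 to 43 fragments in the DMSO replicates, with medians of 19 and 22. Of these 21 summits, 18 passed the −log10 p of 5.72 in both DMSO replicates. The exceptions are 1 summit each of Pax7, Lbx1 and Six4. The Met summit passed this p limit with 10 and 12 fragments, the first of which is below the 11 fragments given for the C59 libraries. With all 4 libraries held to this p limit, the landscapes had 24 and 25 summits in DMSO controls and 1 and 1 after C59.

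**Figure D3:**
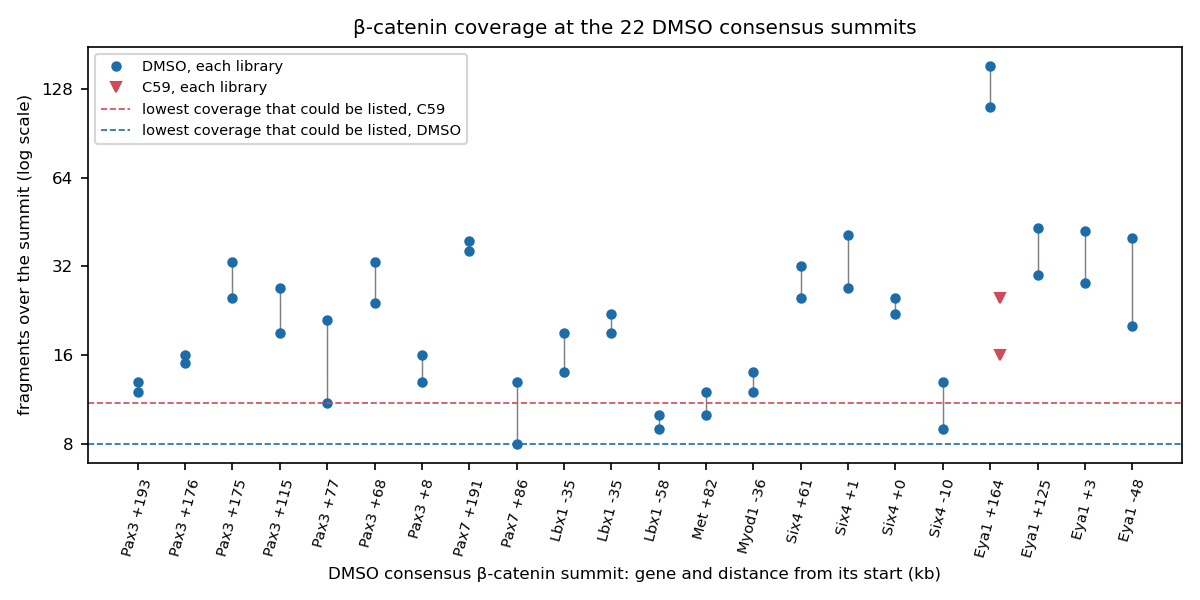
Number of overlapping fragments at the replicate summit nearest to each of the 22 DMSO consensus β-catenin summits (log axis), with blue points for the 2 DMSO libraries, red triangles for the 2 C59 libraries where a peak was called, and dashed lines for the lowest coverage that could be listed at the background (8 fragments in DMSO, 11 after C59). The Eya1 site at +164 kb stands above all others in DMSO, and its C59 values of 16 and 25 lie above the dashed C59 line of 11 and below the DMSO values.

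The motif content of the 22 windows was compared with that of all DMSO consensus summits. The TCF/LEF core occurred in 9 of 22 windows (40.9%, exact 95% binomial interval 20.7 to 63.6%), against 28.6% of all windows. These 9 windows comprise 3 of Pax3, 2 each of Six4 and Eya1 and 1 each of Pax7 and Lbx1, while the Met and Myod1 summits had none. The E-box CAGCTG, a sequence bound by the MYOD family and other bHLH factors, was found in 7 of 22 (31.8%, 13.9 to 54.9%), against 18.8%. The homeodomain core TAATTA was found in 4 of 22 (18.2%, 5.19 to 40.3%), against 14.8%. TCAGGTT, the first bases of the MEF3 element that SIX4 binds, was present in 3 of 22 (13.6%, 2.91 to 34.9%), against 2.97%. The intervals of all 4 motifs include the share over all summits. These 3 windows with TCAGGTT are 2 of Six4 and 1 of Eya1 at +125 kb, which also holds a TCF/LEF core. All motifs were read on both strands, none of these words is contained in another, and a match describes the sequence only.

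H3K27ac was compared next, to assess if the marks of active CRMs around these genes change in the 6 h after treatment. The 8 landscapes held 31 and 31 H3K27ac summits in DMSO controls and 28 and 28 after C59, a difference in means of -3 (p = 0.3333, two-sided exact permutation test, n = 2 per treatment). The groups do not overlap as summits, but counted as peaks there were 20 and 21 in DMSO controls and 18 and 22 after C59 (p = 1 in the same exact test). For 1 of the 8 genes, Six4, both C59 counts lay below both DMSO counts, with 17 and 14 summits in DMSO and 11 and 12 after C59. The same holds for 12.1% of all protein-coding genes. In each library most of the Six4 summits lay nearest to the start of another gene. Merged into regions, the peaks around Six4 numbered 8 and 7 in DMSO controls and 6 and 7 after C59, so that these ranges touch. For 0 of 8 genes both C59 counts lay above both DMSO counts, compared with 4.84% of all genes.

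The landscapes differed widely in H3K27ac. No H3K27ac summit was called in any library within 100 kb of Myf5 or Myod1, as for 15.2% of all protein-coding genes. The Six4 landscape had the most H3K27ac summits when those nearest to other genes are counted. It was followed by Lbx1 with 6 and 7 summits in DMSO and 7 and 8 after C59. Eya1 had 2 and 3 summits in DMSO and 5 and 3 after C59. Pax3 had 2 and 3 against 1 and 2, Met 2 and 3 against 2 and 2, and Pax7 2 and 1 against 2 and 1. Treatments overlapped or met in value for each of these 5 genes.

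At their own promoters, 4 of the 8 genes (Lbx1, Met, Six4 and Eya1) had an H3K27ac summit in both DMSO replicates, and the same 4 had one in both C59 replicates. Over all protein-coding genes the shares were 52.3% in DMSO controls and 51.3% after C59. The Eya1 promoter had the highest fold of these in 3 of the 4 libraries, with 11.1 and 9.34 in DMSO controls and 11.2 and 9.83 after C59. For Six4 they were 10.1 and 8.78 against 9.12 and 10.3, and for Met 5.42 and 5.68 against 4.79 and 5.53. Lbx1 had the lowest, with 4.15 and 2.64 in DMSO controls and 3.06 and 3.68 after C59. In these 4 promoters the folds of the 2 treatments overlapped. Pax3 had a promoter summit in 1 replicate of each treatment, with folds of 3.35 in DMSO and 3.27 after C59. The promoters of Pax7, Myf5 and Myod1 had none in any library.

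Overlapping H3K27ac peaks of the 4 libraries were merged into regions, 25 of which lay in these landscapes, among 34047 in all. Of the 25, 14 were called in all 4 libraries, and their highest fold enrichment was compared with limma on the log2 scale after centring each library on its median. The adjusted p passed 0.05 for 0 of the 14 regions, against 1 lower (0.00572%) and 2 higher (0.0114%) of the 17475 regions tested. The unadjusted p was below 0.05 for 0 of the 14 and for 2019 (11.6%) of all regions. The log2 difference between C59 and DMSO had a median of 0.07 over the 14 regions (range -0.11 to 0.34) and of 0.03 over all regions, with a median standard error of 0.20 for the 14. The lowest adjusted p was 0.564, at the Capza2 promoter in the Met landscape (log2 difference 0.11 ± 0.07, SE). Differences of this size could not be resolved with 2 libraries per treatment.

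**Figure D4:**
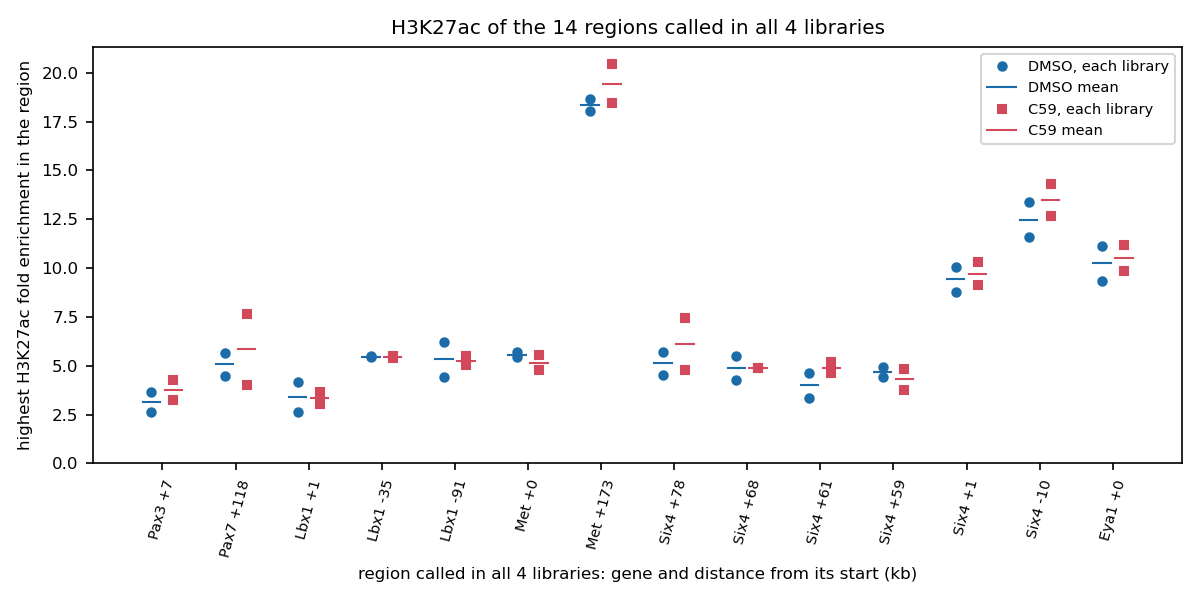
Highest H3K27ac fold enrichment in each of the 14 regions called in all 4 libraries, named by gene and distance from its start (kb), with points for single libraries and short lines for the mean of 2. The folds of the 2 treatments overlap in 13 of the 14 regions, with 1 region of the Six4 landscape as the exception. The share of overlapping regions over the genome was not computed, so this number is not read as particular to these genes. The highest region, in the Met landscape at +173 kb, is the Capza2 promoter.

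The region with the highest H3K27ac of each landscape was in several cases that of a neighbouring gene. In the Met landscape the Capza2 promoter had folds of 18.0 and 18.6 in DMSO controls and 20.4 and 18.5 after C59, and in the Six4 landscape the Mnat1 promoter had 11.6 and 13.4 against 14.3 and 12.7. Both encode widely used proteins, an actin capping subunit and an assembly factor of the CDK-activating kinase. The strongest region of the Eya1 landscape was its own promoter. For Pax3 it was the intronic region at +7.44 kb, with 3.64 and 2.63 in DMSO controls and 4.28 and 3.27 after C59 (log2 difference 0.30 ± 0.22, SE, adjusted p = 0.635 in limma). The only Pax7 region lies beyond the 3′ end, 118 kb from the start, with 4.50 and 5.64 against 7.67 and 4.02 (0.17 ± 0.26, adjusted p = 0.846 in limma). For Lbx1 the highest single value was at -90.6 kb, with 6.24 and 4.45 against 5.49 and 5.03 (0.02 ± 0.21, adjusted p = 0.980 in limma). This region lies nearest to the start of Btrc, and the Pax7 region nearest to that of Tas1r2. The Lbx1 region at -34.7 kb, with 5.50 and 5.43 against 5.41 and 5.49, was lower in both first replicates and higher in both second replicates.

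The remaining 11 regions were not called in all 4 libraries and are described by their calls. In both DMSO and neither C59 replicate were 2 regions, at Pax3 +175 kb (folds of 3.80 and 3.86) and Lbx1 +14.8 kb (4.07 and 3.35), compared with 3.03% of all merged regions. In neither DMSO and both C59 replicates was 1 region, at Lbx1 +4.55 kb (2.87 and 2.49), compared with 2.15% of all. In the Eya1 landscape, the region at +125 kb was called in 1 DMSO and both C59 replicates, with folds of 4.56 against 5.10 and 3.97, and so was the region at -47.8 kb, with 3.60 against 3.83 and 3.77.

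Of the 22 DMSO consensus β-catenin summits, 5 lay in an H3K27ac peak of the DMSO consensus list (22.7%, exact 95% binomial interval 7.82 to 45.4%), compared with 22.1% of all. With the H3K27ac peaks extended by 1 kb the share was 40.9%, compared with 34.1% of all. With the H3K27ac consensus peaks of C59-treated buds, the number was again 5. The only change was the Eya1 summit at -47.6 kb in place of the stronger Pax3 summit at +175 kb. The Pax3 summit at +7.59 kb lay in a consensus H3K27ac peak of both treatments. The Lbx1 summit at -35.1 kb, the Six4 summit at +1.4 kb and the Mnat1 summit at -10.4 kb lay in H3K27ac peaks of all 4 libraries. There the H3K27ac folds overlapped between treatments, for example 5.50 and 5.43 against 5.41 and 5.49 in the Lbx1 region (log2 difference 0.02 ± 0.18, SE, adjusted p = 0.979 in limma), although no β-catenin summit was called after C59. The Pax3 summit at +175 kb lay in an H3K27ac peak of both DMSO replicates and of neither C59 replicate. The Eya1 summit at -47.6 kb lay in an H3K27ac peak of both C59 replicates and of neither DMSO replicate. However, the second DMSO replicate had a peak beginning close by in the same merged region. Its fold was 3.60, against 3.83 and 3.77 after C59. The Eya1 summit retained after C59 lay in no H3K27ac peak of any library.

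The 18 other genes of the limb muscle pathway examined comprise the guidance genes Hgf, Gab1, Cxcr4 and Cxcl12, the regulators Eya2, Eya4, Dach1 and Dach2, which act in 1 network with Six4 and Eya1, further regulators of muscle precursors (Meox1, Meox2, Msc, Fgfr4 and Mef2c) and genes of differentiating muscle (Myf6, Myog, Des, Cdh15 and Chrna1). For 17 of the 18, both C59 β-catenin counts lay below both DMSO counts, compared with 65.0% of all genes, and the exception was Myf6, which is next to Myf5 and shares its single summit. These shares depend on having summits in DMSO controls to begin with. A DMSO consensus summit was present for 94.4% of the 18 genes and for 58.8% of all genes. For 5 of the 18 the H3K27ac counts were lower after C59, compared with 12.1% of all genes, and for 0 they were higher, compared with 4.84% of all genes. These 5 are Mef2c, Des, Cdh15, Meox2 and Dach2. Mef2c had 6 and 6 summits in DMSO against 5 and 4 after C59, and Des 12 and 12 against 11 and 10. Cdh15 had 7 and 7 against 5 and 4. Only summits were counted for these genes, not peaks or regions. The counts reached 0 in a C59 library for Meox2 (4 and 3 in DMSO, 1 and 0 after C59) and Dach2 (3 and 2 in DMSO, 0 and 1 after C59). Hgf, the ligand of MET, had 13 and 13 β-catenin summits in DMSO controls and 0 and 1 after C59. Dach1, a cofactor in the network of SIX4 and EYA1, had 12 and 18 against 0 and 0, Eya4 had 8 and 13 against 0 and 0, and Meox1, a somite homeobox gene, had 7 and 9 against 0 and 0. The 582.913 kb around Dach1 and 447.824 kb around Eya4 are longer than any of the 8 landscapes, whereas the 266.658 kb around Hgf are shorter than the Pax3 landscape.

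At the promoters of these 18 genes, H3K27ac was called in both DMSO replicates for 9 and in both C59 replicates for 7, where the shares over all protein-coding genes were 52.3% and 51.3%. Gab1, an adaptor of the MET receptor, had the highest consensus fold (9.48), with replicate folds of 9.26 and 9.05 in DMSO controls and 8.50 and 9.12 after C59. It was followed by Eya4 (consensus 9.44) with 10.1 and 9.51 against 8.76 and 8.75, Dach1 with 6.78 and 6.57 against 6.49 and 6.26, and Hgf with 5.44 and 5.25 against 7.51 and 5.64. The promoters of Meox1, Msc, Myf6, Myog, Des, Cdh15 and Chrna1 had no H3K27ac summit in any library.

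The pattern of Pax3, with many β-catenin summits that are lost and few H3K27ac summits, was compared with that of all other protein-coding genes by the Euclidean distance of log2(summits + 1) over the 8 libraries. The 3 nearest genes were Plcb1 (distance 0.64), Hibadh (0.75) and Pgm5 (0.78). Plcb1 had 9 and 11 β-catenin summits in DMSO controls and 0 after C59, with 2 and 3 against 2 and 2 for H3K27ac.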

How the data were processed

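Peak lists of 8 ChIP-seq libraries (β-catenin and H3K27ac, DMSO or C59, 2 replicates each) and 4 consensus lists were used. The 4 input samples have no list here, and peaks were called without input. According to the methods and the submitters' processing notes, the authors trimmed reads with Cutadapt (version 4.1 in the notes), mapped them to mm10 with Bowtie2 2.4.5, removed alignments of low mapping quality and called peaks with MACS2 2.2.7.1. Consensus peaks were called on both replicates after deduplication (Picard 2.27.4) and sampling to equal depth, and retained where the summit fell in a peak of each replicate. In the deposited lists, each row is a summit with its fold enrichment, a ratio over the expected coverage, its −log10 p-value and −log10 q-value, and a score. The q-values of the consensus lists were not used here. Signal below the q-value limit is missing from such lists, and a site without a row may still be occupied.

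The members and gene lists were chosen with earlier results of these data known. Summits were assigned to GENCODE M21 genes (window 100 kb), and promoters are within 1 kb of a start. Coverage was solved from the fold enrichment and p-value of each row. It was recovered for 100% of the rows tried, with a −log10 p up to 250, and gives the depth, since read totals were not used here. Differences in summit counts between 2 and 2 libraries were tested by exact permutation (smallest p = 0.3333). The highest fold enrichment of merged H3K27ac regions called in all 4 libraries was analysed with limma 3.58.1 (R 4.3.3, trend, Benjamini-Hochberg adjustment over 17475 regions). limma was tested on simulated data for the comparison of H3K27ac between C59 and DMSO: of 200 regions changed 4-fold among 20000, 99.5% were recovered, with 9 false calls. Named sites are, for each gene, the strongest DMSO consensus β-catenin summit, all β-catenin summits after C59, the strongest H3K27ac region and the promoter. Other sites and genes named were chosen after their values were seen. In the pathway list, values are given for the 4 genes with most DMSO consensus summits and the 4 promoters with the highest H3K27ac. Some items of the planned lists are not reported here. Alternatives comprised windows of 50 and 200 kb, a −log10 q of at least 3, a common p limit, other normalizations, other motif windows, a replicate block and leaving out each replicate. Scripts ran in Python 3.11.15 with pandas 2.3.3, scipy 1.17.1, numpy 2.4.6 and pysam 0.24.0.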

Additional observations from a re-analysis of the deposited data

How the results depend on the processing

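The difference of β-catenin summits between C59 and DMSO at the 8 landscapes remained negative in all alternatives, with -25 in a window of 50 kb, -51.5 in a window of 200 kb, -24.5 for summits nearest to the gene's own start, -23.5 with a −log10 q of at least 3, and -36 to -29 without single replicates. For H3K27ac summits it was -0.5 in a window of 50 kb, -0.5 counted as peaks and -3.5 in a window of 200 kb, where the exact permutation p was 1, 1 and 0.6667. With H3K27ac summits nearest to the gene's own start it was -1, from 14 and 16 in DMSO controls to 14 and 14 after C59. The labels do not pair the replicates. Same-numbered H3K27ac libraries did not deviate together (correlation 0.01 across 17475 regions, which are not independent), and with the replicate number as a block the differences were -32.5 and -3 (exact sign-flip p = 0.5 for both).

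The number of H3K27ac regions called by limma over the genome depends on the processing. It was 3 as reported, 932 with the recovered coverage in place of the fold enrichment, 7 with regions called in at least 3 libraries, 0 with the mean fold enrichment over summits, 125 with the replicate block, and 6 to 31 without single replicates, where the lone library is assumed to vary like the others. The cause was not tested. At the 8 landscapes the number was 0 in all of these. Leaving out single replicates gave 3932 to 6316 genes with fewer and 2081 to 4013 with more H3K27ac summits after C59, against 2649 and 1061, as fewer libraries have to be separated. The TCF/LEF share was 68.2% with the shorter core CTTTG, which is contained in the main one and which 59.97% of all consensus windows hold, and 27 to 45.5% in the other settings. Of 76 alternative values, 60 were labelled the same as the main value and 16 as moved. This labelling is coarse. The H3K27ac summit difference of -0.5 in a window of 50 kb was labelled the same as the main -3. TCF/LEF shares of 27 to 45.5% were labelled the same as the main 40.9%. The number 60 is therefore no measure of how little the values moved.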
